A study of Mus musculus with 16 samples.

Results

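The ribosomal protein genes examined were all genes on the array whose symbol starts with Rpl or Rps and a digit, together with Rpsa, Rplp0, Rplp1 and Rplp2, without the ribosomal S6 kinases, Rps19bp1 and pseudogenes. There were 65 of them among 16593 named genes, and 59 had a probe detected on at least 8 arrays and could be tested. The arrays were Illumina MouseRef-8 v2 BeadChips hybridized with hypothalamic RNA of female F1 C57BL/6J mice aged 21 days, with 1 array per mouse. Of the mice, 8, abbreviated CON, had been suckled by dams fed ad libitum and 8, abbreviated LUN, by dams that received 50% of what the control dams had eaten on the day before, and litters of both groups held 8 pups. No mouse carried a transgene or received a drug treatment, apart from isoflurane anesthesia before the tissue was taken. The restriction acted on the pups through the nursing dam, and the labels do not say which pups were littermates.
The comparison asks how underfeeding during suckling altered hypothalamic transcript levels at weaning.

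A cytosolic ribosome is built from a small subunit, which decodes the mRNA, and a large subunit, which joins the amino acids. Each subunit holds ribosomal RNA and many small basic proteins, nearly all present in a single copy, and the genes of these proteins are scattered over the genome while their products are needed in matched amounts. Their mRNAs begin with a run of pyrimidines, the 5' terminal oligopyrimidine (TOP) motif, through which the nutrient-sensing kinase mTOR controls their translation, so a TOP mRNA can be translated more or less without a change in its level. An array measures the level of the mRNA and not its translation.

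Array-wide values that bear on these genes were as follows. Mean signal was 451 ± 35.2 intensity units in CON (SD, n = 8) and 377 ± 23.6 in LUN (SD, n = 8), and each of the 2 BeadChips carried 4 arrays of each group, with CON always in the first positions, so that position and group cannot be told apart. Marker lists moved with the groups: 7 of 8 hypothalamic neuropeptide genes, 5 of 5 red cell genes and 5 of 8 meningeal genes fell in LUN, and 8 of 9 thalamic genes rose. The log2 of the summed thalamic signal ran from 12.56 to 13.70 in CON and from 13.44 to 13.78 in LUN, and that of the hypothalamic genes from 13.74 to 14.54 in CON and from 13.63 to 14.03 in LUN. CON 4 and CON 8 stood apart from the other CON arrays, with thalamic scores of 0.72 and 0.30 on the log2 scale (the mean of the marker genes relative to their 16-array means) against −1.43 to −0.34 in the other 6. None of the 4 tested choroid plexus genes passed the test, but LUN 7 and LUN 1 stood apart with choroid plexus scores of 2.09 and 0.97 against −0.39 to 0.09 in the other LUN arrays, and the log2 of the summed signal ran from 9.31 to 11.09 in CON and from 9.55 to 14.28 in LUN. Of the pituitary hormone genes, Gh, Prl, Lhb and Tshb were not detected on enough arrays to be tested. Cga, the remaining gene of that list, was tested and did not pass, with a log2 difference of −0.82. Its scores ran from −0.69 to 1.37 in CON and from −1.06 to 0.47 in LUN. In bulk tissue, fewer cells of a type and less RNA per cell cannot be told apart, and the part of tissue composition in the results below was not tested.

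Most of the ribosomal protein genes that changed fell. Of the 59 tested genes, 11 were lower in LUN and 2 were higher at an adjusted p under 0.05, and 46 did not pass. As shares of the tested members these were 18.6% lower and 3.39% higher, beside 8.59% lower and 7.17% higher among all 10244 tested genes. No member reached a 1.5-fold change with the adjusted p, which 1.39% of all tested genes did. The median log2 difference between LUN and CON was −0.08 over the members and −0.01 over all tested genes, and 48 of the 59 members lay below 0 beside 52.9% of all tested genes. Standard errors of the differences ran from 0.037 to 0.13 on the log2 scale, with a median of 0.052. Median scaling of the arrays in place of quantile normalization gave 39 lower and 1 higher, with a member median of −0.21 and a median over all probes of −0.09, so that the members lay 0.12 below the other probes on that scale and 0.08 below them after quantile normalization.

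**Figure D1:**
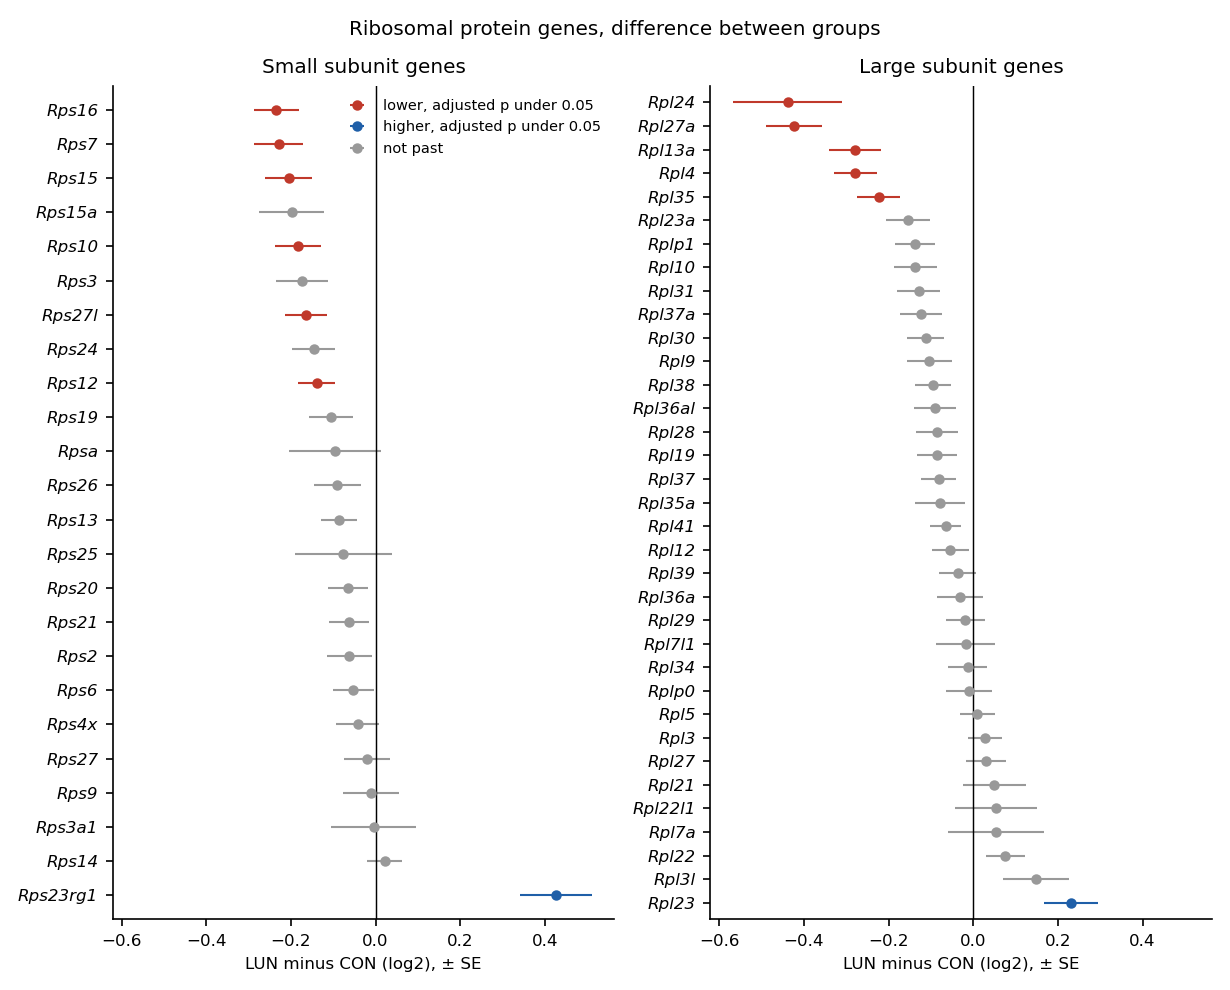
Difference between LUN and CON for each of the 59 tested ribosomal protein genes, as the log2 difference on the x axis with its SE, with small subunit genes on the left and large subunit genes on the right. Genes are placed by symbol, so the retrogene Rps23rg1 is on the left. Red points are the 11 genes that were lower and blue points the 2 that were higher at an adjusted p under 0.05, and 48 of the 59 points lie left of 0.

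Genes that were lower in LUN were found in both subunits. Among 24 tested small subunit genes 6 were lower (25%) and 1 was higher (4.17%), with a median log2 difference of −0.09. The 1 that was higher was the retrogene Rps23rg1, placed in this group by its symbol only. Among 35 tested large subunit genes 5 were lower (14.3%) and 1 was higher (2.86%), with a median of −0.08. Over all tested genes the shares were 8.59% lower and 7.17% higher. The difference between the subunits was not tested. The 46 genes that did not pass had log2 differences between −0.20 and 0.15, and 37 of them were below 0. Of those 46, 10 had an unadjusted p under 0.05. Passing genes included, such a p was found for 23 of the 59 members and for 3113 of all 10244 tested genes.

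The largest falls belonged to large subunit proteins. Rpl24, which forms a bridge between the subunits, gave log2 signals of 6.97, 7.45 and 7.99 (lowest, median and highest array) in CON and 6.86, 7.05 and 7.14 in LUN. The 8 LUN arrays sat together near the lower end of the CON range, in which only CON 4 and CON 8 lay as low as the highest LUN array. The log2 difference of Rpl24 was −0.44 ± 0.13 (SE, 8 against 8 arrays), or 1.35-fold lower in LUN, with an adjusted p of 0.0283. The call was lost when the variance of each probe was estimated alone (adjusted p = 0.0522) and in 6 of the 16 fits with 1 array left out. Its CON arrays had an SD of 0.39 and its LUN arrays of 0.10, and the former was the widest spread of any called member in either group.

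Rpl27a, a protein of the core of the large subunit, had the smallest adjusted p of the members. Its arrays read 9.94, 10.17 and 10.33 in CON and 9.54, 9.76 and 9.95 in LUN (lowest, median, highest). Only CON 8 and LUN 4 crossed, and the log2 difference was −0.42 ± 0.065 (SE), with an adjusted p of 0.0007. A dimmer Rpl27a probe, also detected on all 16 arrays, gave −0.04 with an adjusted p of 0.841, so the 2 probes of this gene disagreed. Which of the transcripts of the gene each probe binds was not examined.

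Rpl4, which lines part of the tunnel through which the new peptide leaves, was 1 of 2 members whose groups did not overlap with LUN below. CON arrays of Rpl4 ran from 9.26 through a median of 9.40 to 9.47 and LUN arrays from 8.95 through 9.12 to 9.23. The log2 difference was −0.28 ± 0.051 (SE), with an adjusted p of 0.0019, and it was −0.26 within BeadChip 1 and −0.30 within BeadChip 2. Over all tested genes 1.32% had every LUN array below every CON array, and 0.927% had every LUN array above, which no member did.

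Rpl13a, known in human monocytes for leaving the ribosome to silence inflammatory mRNAs, and Rpl35, which sits at the mouth of the exit tunnel, completed the large subunit genes that fell. Rpl13a arrays read 8.998, 9.13 and 9.24 in CON and 8.67, 8.85 and 9.10 in LUN, with LUN 4 and LUN 8 inside the CON range. Its log2 difference was −0.28 ± 0.061 (SE), with an adjusted p of 0.0058. Rpl35 arrays read 11.76, 11.90 and 11.996 in CON and 11.48, 11.68 and 11.78 in LUN. CON 1 alone lay at the level of the 2 highest LUN arrays, LUN 4 and LUN 8, and the log2 difference of Rpl35 was −0.22 ± 0.051 (SE), with an adjusted p of 0.0074.

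In the small subunit the largest fall was that of Rps16, a protein of the head of the subunit. Its arrays ran from 11.24 through 11.36 to 11.51 in CON and from 11.01 through 11.13 to 11.28 in LUN. CON 4 and CON 8 were again the low CON arrays, and LUN 2 and LUN 7 the high LUN arrays. The log2 difference was −0.23 ± 0.054 (SE), with an adjusted p of 0.0077.

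Rps7, mutated in some human patients with Diamond-Blackfan anemia, was the other member without overlap. The CON arrays of Rps7 spread from 9.94 through 10.001 to 10.28, and the LUN arrays lay close together from 9.79 through 9.84 to 9.92. CON 2, CON 3 and CON 5 made up the top of the CON range, and the other 5 CON arrays lay just above the highest LUN array, between 9.94 and 10.04. The log2 difference was −0.23 ± 0.058 (SE), with an adjusted p of 0.0135.

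Rps15, a head protein, Rps10, another gene of that anemia whose product is ubiquitinated on stalled ribosomes in human cells, and Rps12, a protein of the beak, fell by less. Rps15 read 9.98, 10.18 and 10.36 in CON and 9.86, 9.94 and 10.09 in LUN, with a log2 difference of −0.21 ± 0.055 (SE) and an adjusted p of 0.0168. Rps10 read 10.51, 10.82 and 10.86 in CON and 10.49, 10.58 and 10.73 in LUN, and its log2 difference was −0.18 ± 0.054 (SE), adjusted p = 0.0295. For both, CON 4 and CON 8 lay within the LUN range, and for Rps15 so did CON 1, its lowest CON array. Rps12, named here because it completes the 11, had a log2 difference of −0.14 ± 0.044 (SE), with an adjusted p of 0.0393.

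**Figure D2:**
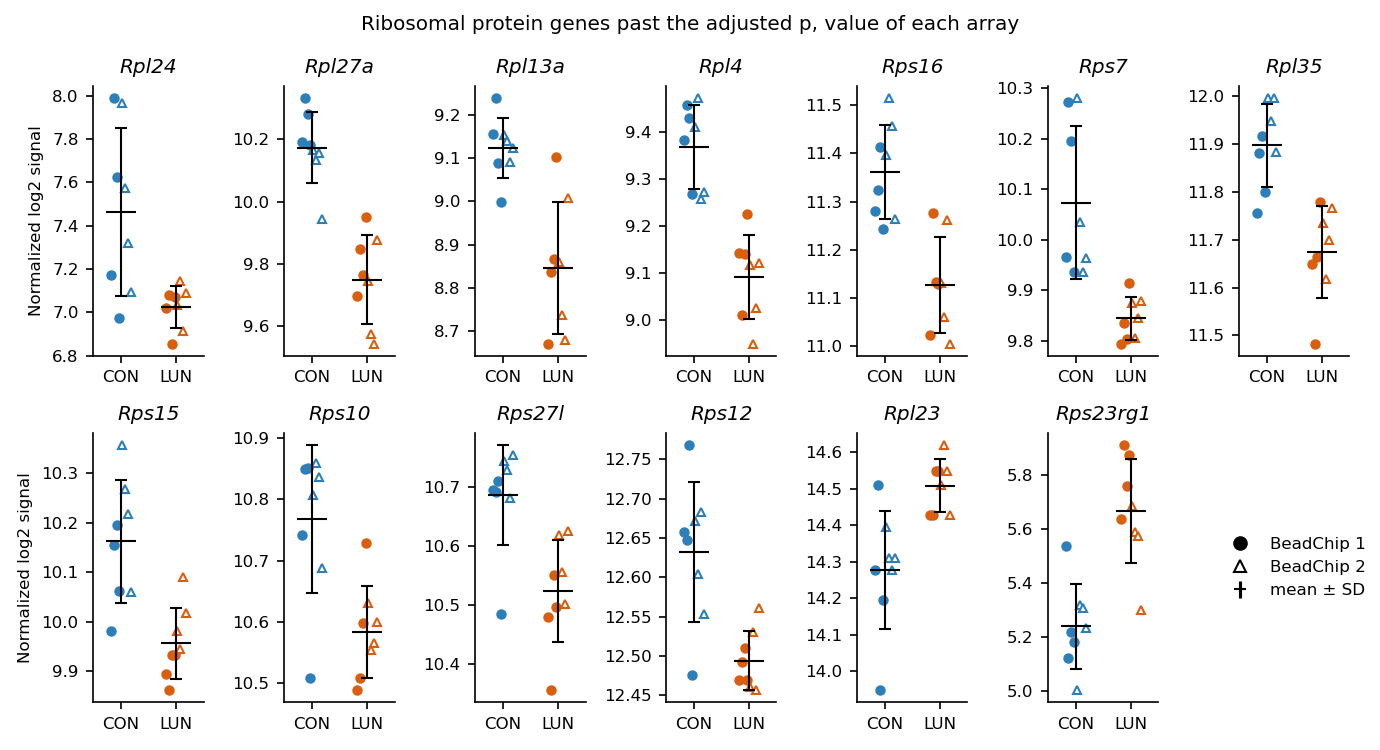
Normalized log2 signal of each array (y axis, scaled to each gene) for the 11 ribosomal protein genes that fell and the 2 that rose, in CON and LUN, with the mean and SD as black bars, BeadChip 1 filled and BeadChip 2 open. The groups do not overlap for Rpl4 and Rps7, and the 8 LUN arrays of Rpl24 lie between 6.86 and 7.14 while its CON arrays spread up to 7.99.

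Among the genes that fell, 7 of the 11 had CON 4 or CON 8 as their lowest CON array, and these arrays were lowest for 19 and 14 of the 59 tested members. Without both arrays 17 members were lower and 2 were higher, the 11 included. The median log2 difference was then −0.09 over the members and −0.01 over all tested probes. Shares of all tested genes called are not given for this fit or for those with 1 array left out. Whether the change in count is particular to these genes was therefore not tested. Leaving them out also widened the gap in mean thalamic score, with CON at −0.99 instead of −0.62 and LUN at 0.62, and the part of composition in these counts was not tested. Leaving out 1 array at a time gave between 7 and 15 lower genes, with 7 when CON 2, CON 3, CON 5 or CON 6 was left out. The count was 8 when CON 7, LUN 1, LUN 2 or LUN 7 was left out. Of these arrays, LUN 1 and LUN 7 had high choroid plexus scores, and LUN 2 had a score of 0.09. Rpl13a, Rpl27a, Rpl35, Rpl4, Rps15, Rps16 and Rps7 passed with each array left out, and Rpl24, Rps10, Rps27l and Rps12 did not.

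Rpl23 and Rps23rg1 were the 2 members higher in LUN. Rpl23, a large subunit protein at the interface that also binds the p53 ligase Mdm2, gave 13.95, 14.29 and 14.51 in CON and 14.43, 14.53 and 14.62 in LUN, with only CON 2 as high as the LUN arrays. Its log2 difference was 0.23 ± 0.064 (SE), with an adjusted p of 0.0207, and it was −0.021 without normalization between arrays, where the median over all probes was −0.25. Before normalization its signal was 18372 to 24426 intensity units in CON and 19612 to 23047 in LUN, so the rise is relative to arrays that were dimmer in LUN. The other 3 tested Rpl23 probes gave log2 differences of 0.04, −0.20 and 0.00, none past the test, with adjusted p-values of 0.621, 0.084 and 0.996.

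Rps23rg1 is a mouse retrogene on chromosome 8, a processed copy of Rps23 that has been studied for effects on kinases of the brain. Arrays of its probe read 5.00, 5.22 and 5.54 in CON and 5.30, 5.66 and 5.91 in LUN. LUN 8 was the only LUN array within the CON range, and the log2 difference was 0.43 ± 0.084 (SE), with an adjusted p of 0.0031, at 0.53 within BeadChip 1 and 0.32 within BeadChip 2. Before normalization the mean signal of this probe was 85.4 intensity units in CON and 89.4 in LUN, near the background. The parent gene Rps23 was detected on 3 CON arrays and 1 LUN array and was not in the fit. Its log2 signal was 4.81 ± 0.19 in CON (SD, n = 8) and 4.62 ± 0.22 in LUN (SD, n = 8), a difference of −0.19 with p = 0.0821 in a two-sided exact permutation test over all splits of the arrays into 8 and 8, whose smallest possible p is 0.000155. Whether either probe also binds the transcript of the other gene was not tested.

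The sequences around the annotated start are shown for 8 of the members that changed, chosen after the sequences were seen to include long and short pyrimidine runs, since the TOP motif is what these mRNAs share. RefSeq start-site sequences of the build GRCm38.p6 were matched by symbol for 56 of the 65 genes. The 60 bases printed run from 30 bases before the annotated start to 30 bases after it, 5' to 3', and the capitals mark the longest run of C and T in the window. The first 4 genes fell and have long runs, the next 2 fell and have short runs, and the last 2 rose.
Rpl27a: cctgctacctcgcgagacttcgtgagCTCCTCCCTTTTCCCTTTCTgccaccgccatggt
Rpl35: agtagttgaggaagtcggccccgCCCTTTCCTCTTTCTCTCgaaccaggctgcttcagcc
Rpl13a: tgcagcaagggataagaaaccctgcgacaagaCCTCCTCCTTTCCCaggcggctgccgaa
Rps10: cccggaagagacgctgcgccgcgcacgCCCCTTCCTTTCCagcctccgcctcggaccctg
Rpl24: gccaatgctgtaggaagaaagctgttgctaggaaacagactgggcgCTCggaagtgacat
Rps16: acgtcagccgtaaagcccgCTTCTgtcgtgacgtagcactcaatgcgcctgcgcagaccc
Rpl23: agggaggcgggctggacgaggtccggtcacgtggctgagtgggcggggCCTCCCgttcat
Rps23rg1: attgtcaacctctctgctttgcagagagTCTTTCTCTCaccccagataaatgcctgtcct

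These windows lie as follows: Rpl27a on the plus strand at chr7:109519165-109519224, Rpl35 on the minus strand at chr2:39005102-39005161, Rpl13a on the minus strand at chr7:45128716-45128775, Rps10 on the minus strand at chr17:27635215-27635274, Rpl24 on the plus strand at chr16:55966245-55966304, Rps16 on the plus strand at chr7:28350659-28350718, Rpl23 on the minus strand at chr11:97782410-97782469 and Rps23rg1 on the plus strand at chr8:3567968-3568027. The run of Rpl27a is 20 bases long and begins 4 bases before the annotated start, and that of Rpl35 is 18 bases long and begins 7 bases before it. In Rpl24 the longest run is 3 bases and in Rps16 5 bases, although both genes fell. A run of at least 10 bases was found in 21 of 67 annotated starts of ribosomal protein genes (31.3%), beside 10.9% of 32851 annotated starts in the table. Among the genes that fell 6 of 12 starts held one, and among the other tested members 13 of 50. The annotated start need not be the base at which transcription begins in the hypothalamus, and the runs are a description of these letters, with no test against the array values.

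In the 300 bases from 250 before to 50 after the start, the core CCGGAA of ETS-family sites, searched on both strands, was present in 44.8% of the starts of ribosomal protein genes and in 14.9% of all starts. The Sp1 core GGGCGG was in 61.2% and 35.7%, the YY1 core ATGGCG in 29.9% and 8.93%, and the TATA core TATAAA in 8.96% and 13.6%. Of the 12 starts of genes that fell, 5 held the ETS core, as did 21 of the 50 starts of other tested members.

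Genes of the P stalk, the flexible arm that recruits the elongation factors, did not pass. Rplp1 read 13.34, 13.43 and 13.56 in CON and 13.19, 13.30 and 13.42 in LUN, a log2 difference of −0.14 ± 0.047 (SE) with an adjusted p of 0.0542, just outside the threshold. Rplp0, the base of the stalk and a common reference gene for PCR, differed by −0.01 ± 0.055 (SE) with an adjusted p of 0.93, from CON values of 7.42 to 7.77 and LUN values of 7.49 to 7.72. Rplp2 was detected on no array.

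Rps6, Rpl5, Rpsa and Rps19 did not pass either. Rps6, the small subunit protein phosphorylated by the S6 kinases downstream of mTOR, read 10.79 to 11.06 in CON and 10.67 to 10.93 in LUN, with a log2 difference of −0.05 ± 0.048 (SE) and an adjusted p of 0.498. Rpl5, which carries the 5S rRNA and can bind Mdm2, differed by 0.01 ± 0.042 (SE), adjusted p = 0.913. Without normalization between arrays Rpl5 differed by −0.28, beside a median of −0.25 over all probes. Rpsa, also known as a laminin receptor, differed by −0.10 ± 0.11 (SE), adjusted p = 0.598, at a signal near the background. Rps19, the gene most often mutated in human Diamond-Blackfan anemia, differed by −0.11 ± 0.052 (SE), adjusted p = 0.185.

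Of the 9 tested genes linked to that anemia in human patients, 2 fell, Rps7 and Rps10, and none rose. The share that fell was 22.2%, beside 8.59% of all tested genes, and the median log2 difference was −0.11. Among the ribosomal protein genes with the brightest probes, Rpl41, which encodes the smallest protein of the ribosome, differed by −0.07 ± 0.037 (SE), adjusted p = 0.255, and Rps20 by −0.06 ± 0.047 (SE), adjusted p = 0.383. Probe brightness also reflects the probe itself and does not rank the transcripts.

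Paralogs, copies that can replace a ribosomal protein in some tissues, were tested for 5 genes, and 1 fell (20%, beside 8.59% of all tested genes). Rps27l, a copy of Rps27 that responds to p53, read 10.49, 10.70 and 10.76 in CON and 10.36, 10.53 and 10.63 in LUN. CON 4 was the only CON array within the LUN range, and the log2 difference was −0.16 ± 0.049 (SE), adjusted p = 0.0320. Its partner Rps27 differed by −0.02 ± 0.054 (SE), adjusted p = 0.84. Rpl3l, the heart and skeletal muscle copy of Rpl3, differed by 0.15 ± 0.077 (SE), adjusted p = 0.208, and Rpl22l1, the copy of Rpl22, by 0.05 ± 0.097 (SE), adjusted p = 0.763. Rpl36al differed by −0.09 (adjusted p = 0.234) and Rpl7l1 by −0.02 (adjusted p = 0.896). Rpl39l was detected on no array.

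In all, 10 members had more than 1 tested probe, and in 6 of them no probe passed. The 4 others were Rpl23 and Rpl27a, given above, and Rpl31 and Rps9, where a dimmer probe passed and the brighter probe that stood for the gene did not. For Rpl31, a protein at the exit of the large subunit, the brighter probe gave −0.13 ± 0.052 (SE, adjusted p = 0.101) and the dimmer −0.34 ± 0.064 (SE, adjusted p = 0.0024). Arrays of the dimmer Rpl31 probe read 8.84, 9.11 and 9.22 in CON and 8.65, 8.70 and 9.02 in LUN, with LUN 4 the highest LUN array. For Rps9, a protein of the small subunit body, the brighter probe gave −0.01 ± 0.066 (SE, adjusted p = 0.937) and the dimmer −0.21 ± 0.053 (SE, adjusted p = 0.0126). The 2 probes of Rpl21, Rpl29 and Rpl38 differed in sign, at 0.05 and −0.16, −0.02 and 0.13, and −0.10 and 0.10 on the log2 scale, with none past the test. Both Rpl21 probes had signals near the background. With the mean over the probes of a gene 15 members were lower and 1 was higher.

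Besides Rplp2 and Rpl39l, the core genes Rpl6, Rpl14 and Rpl17 were detected on no array. Signals of the Rpl6 probe were 54.7 to 66.1 intensity units in CON and 51.2 to 62.004 in LUN, and those of the Rpl14 probe 59.4 to 69.9 in CON and 57.3 to 64.6 in LUN. These are proteins of every ribosome, so a probe without signal says nothing about the transcript.

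**Figure D3:**
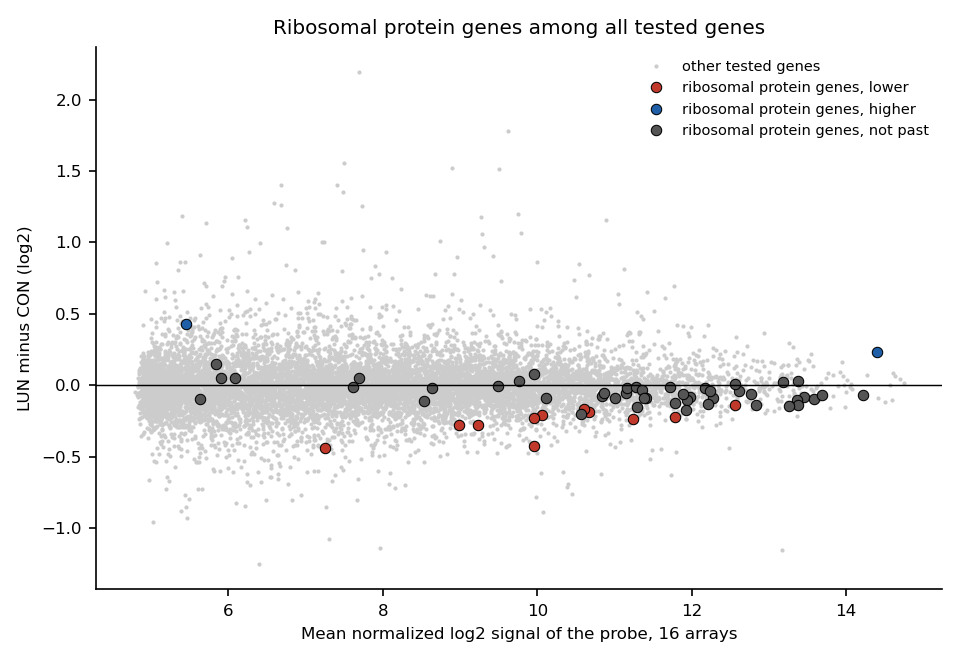
Log2 difference between LUN and CON (y axis) against the mean normalized log2 signal of the probe (x axis) for all 10244 tested genes, with the 59 ribosomal protein genes as large points. Members lie mostly at high signal and just below 0, with the 11 lower genes in red between −0.44 and −0.14, and the 2 higher genes in blue at the low and high ends of the signal.

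Because ribosomal protein probes were bright, the calls were also counted by signal. At a mean log2 signal of 8 to 10, 4 of 9 members were lower (44.4%) beside 10.5% of 2944 other genes. From 10 to 12, 5 of 23 members were lower (21.7%) beside 9.12% of 1414 other genes. At 12 and above, 1 of 19 was lower and 1 was higher (5.26% each), beside 8.31% lower and 13.3% higher among 301 other genes. Below 8, 1 of 8 was lower and 1 was higher (12.5% each), beside 7.35% lower and 5.70% higher among 5526 other genes. The median log2 difference of the members was 0.05 below 8, −0.11 from 8 to 10, −0.09 from 10 to 12 and −0.07 at 12 and above, beside −0.01, −0.01, −0.0043 and −0.00089 for the other genes. Members with a signal of 8 to 12 made up 9 of the 11 lower genes.

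Array by array, the mean of the 59 genes relative to their 16-array means was 0.04 ± 0.06 on the log2 scale in CON (SD, n = 8) and −0.04 ± 0.03 in LUN (SD, n = 8). CON arrays ran from −0.03 in CON 8 to 0.12 in CON 5, and LUN arrays from −0.07 in LUN 1 to 0.01 in LUN 3, so that the groups overlapped. CON 2 and CON 5 were the highest arrays of all. The 59 probes took 2.73% ± 0.14 of the background-corrected signal of all probes in CON (SD, n = 8) and 2.64% ± 0.08 in LUN (SD, n = 8), with ranges of 2.58% to 2.95% and 2.52% to 2.74%.

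**Figure D4:**
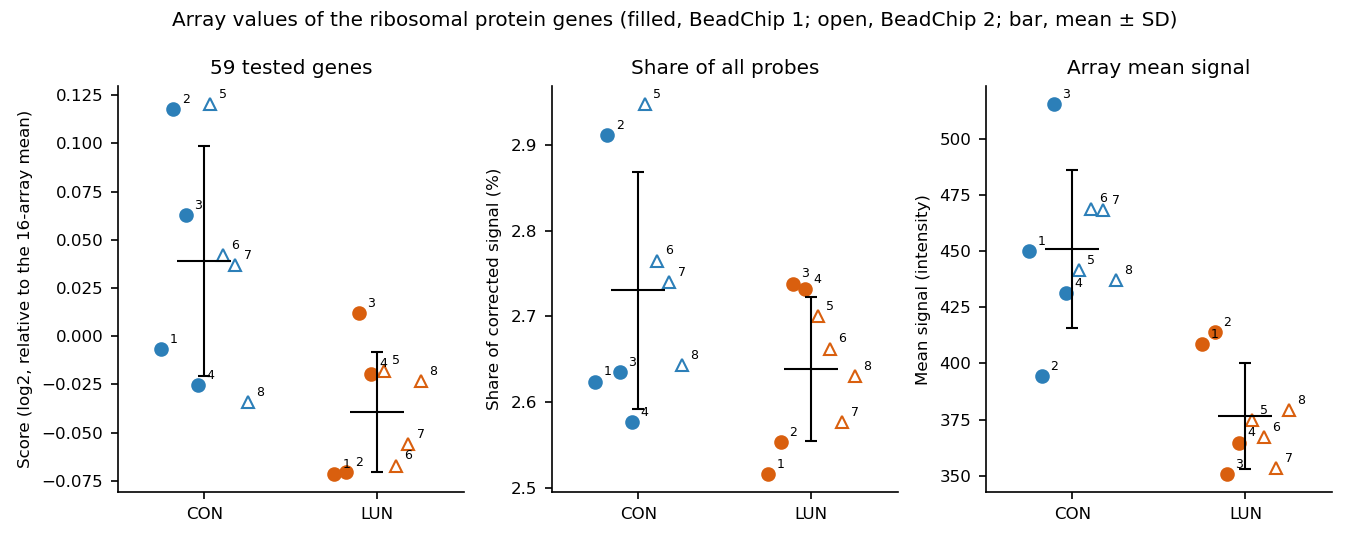
Array values of the ribosomal protein genes in CON and LUN, with the replicate number beside each point, the mean and SD as bars, and the BeadChip as filled or open symbols: the mean log2 signal of the 59 genes relative to the 16-array mean (left), their share of the corrected signal in percent (middle), and the mean signal of the whole array in intensity units (right). CON 2 and CON 5 are the highest arrays in the left and middle panels, and the groups overlap in all 3 panels.

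Within each BeadChip, 4 arrays against 4, no member passed the adjusted p. At an unadjusted p under 0.05 on BeadChip 1, 9 of 59 members were lower and 3 of 59 higher. Among all tested genes the shares there were 9.01% lower and 7.9% higher. On BeadChip 2, 12 of 59 members were lower and 2 of 59 higher, beside 11% and 9.16% of all tested genes. The member median was −0.08 on BeadChip 1 and −0.07 on BeadChip 2.

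Other genes of ribosome production were counted from lists chosen with results of these data known. Among all tested genes 8.59% were lower and 7.17% higher. Of 71 tested mitochondrial ribosomal protein genes, whose products translate the mitochondrial genome, 13 were lower (18.3%) and 0 higher, with a median of −0.07. The largest of these falls were Mrpl15 at −0.64 ± 0.085 (SE, adjusted p = 0.0003), Mrpl57 at −0.44 ± 0.054 (SE, adjusted p = 0.0002), Mrpl51 at −0.30 ± 0.081 (SE, adjusted p = 0.0169) and Mrps21 at −0.23 ± 0.044 (SE, adjusted p = 0.0024). Mrpl15 was the gene of this list past 1.5-fold, at a mean log2 signal of 5.21, near the background.

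Of 30 tested ribosome biogenesis genes 6 were lower (20%) and 1 was higher (3.33%), beside 8.59% and 7.17% of all tested genes. Their median was −0.04. Pes1, needed to process the large subunit rRNA, differed by −0.47 ± 0.062 (SE, adjusted p = 0.0003), the snoRNP proteins Nop58 by −0.39 ± 0.065 (SE, adjusted p = 0.0011) and Nop10 by −0.21 ± 0.043 (SE, adjusted p = 0.0040), and the rRNA methyltransferase Fbl by −0.25 ± 0.056 (SE, adjusted p = 0.0058). Among 16 tested genes of other TOP mRNAs, mostly translation factors, 1 was higher (6.25%) and 0 were lower, with a median of −0.02. The one that rose was the initiation factor gene Eif3f, at 0.15 ± 0.042 (SE, adjusted p = 0.0188). Of 12 tested regulators of ribosomal protein synthesis, such as Mtor and its inhibitor Tsc2, 0 passed the limma test in either direction and 1 had an unadjusted p under 0.05. Whether any list differed from the ribosomal protein genes was not tested.

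**Figure D5:**
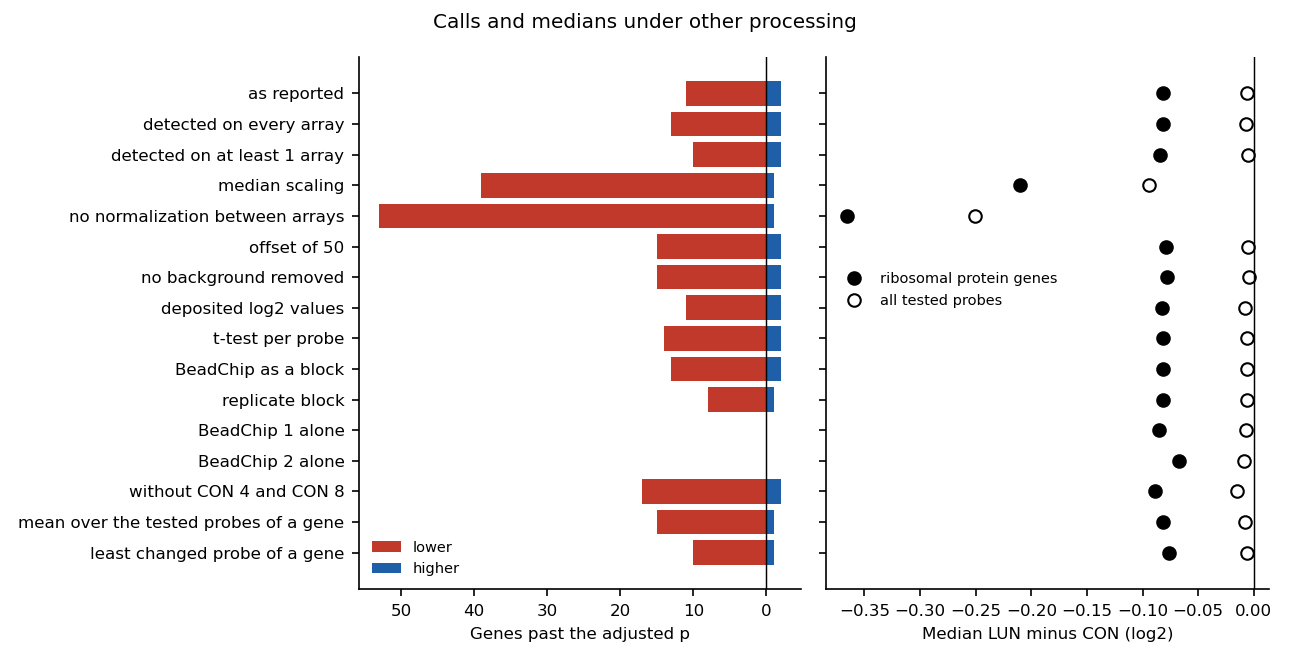
Number of ribosomal protein genes lower (red, to the left) and higher (blue, to the right) at an adjusted p under 0.05, and median log2 difference of the members (filled) and of all tested probes (open), under each way of processing. Counts of lower genes rise from 11 as reported to 39 with median scaling and 53 with no normalization between arrays, where the median of all probes moves to −0.09 and −0.25, and no gene passes on 1 BeadChip alone.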

How the data were processed

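Per the labels, 16 arrays were compared, 8 CON and 8 LUN, 1 per mouse. The authors deposited mean bead signals as intensity values with no background removed and no normalization, as their lowest values show, with the detection p-values of GenomeStudio beside them. The log2 values that the authors deposited, from GeneSpring after quantile normalization and with the median of each probe set to 0, were used as an alternative. Here, limma 3.58.1 in R 4.3.3 estimated background from the detection p-values (normexp, offset 16), followed by quantile normalization and log2. Probes with a detection p under 0.05 on 8 or more arrays entered the test. The lmFit and eBayes functions compared the groups, with Benjamini-Hochberg adjustment over 14870 probes, and the most intense tested probe stood for a gene. The 16 arrays limit the precision. The methods give fewer CON litters than CON mice, so littermates may be among them, and p-values treat mice as independent. Symbols came from the platform annotation, updated by Entrez ID to RefSeq. Of 25697 probes, 1719 had no gene and 16 no match. Values of the score of an array are means over genes of the log2 signal minus its 16-array mean. The script was tested on simulated data.

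The genes and lists were chosen with earlier results of these data known. Named were the 10 largest rises and falls past the test, paralogs, members not tested, members whose probes disagree, the 3 brightest and 3 dimmest, a fixed set (Rplp0, Rplp1, Rplp2, Rpsa, Rps6, Rpl5 and Rps19), and up to 4 of each other list. Rps12, Rps27 and Rpl7a were named after their values had been seen. Alternatives were 2 other detection filters, median scaling, no normalization, an offset of 50, no background removal, the deposited log2 values, a t-test, BeadChip or replicate number as a block, each BeadChip alone, each array left out, CON 4 and CON 8 left out, and other probes for a gene.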

Additional observations from a re-analysis of the deposited data

Results flagged for a closer look

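In 3 of 122 groups examined, 1 array stood off from the other 7 by a gap, taken as a share of the group's range, above the critical value of Dixon's test at the 95% level, and chance alone flags about 1 group in 20. For Rpl7a in LUN the gap ratio was 0.734, with LUN 4 at a log2 signal of 5.40 and the other LUN arrays between 5.91 and 6.10. The signal of the Rpl7a probe is near the background. For Rps27l in CON it was 0.730, with CON 4 at 10.49 and the other CON arrays between 10.68 and 10.76. For Rpl29 in LUN it was 0.622, with LUN 2 at 10.98 and the other LUN arrays between 11.13 and 11.22.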

How the results depend on the processing

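The count of lower genes was 39 with median scaling, 53 with no normalization between arrays, 17 without CON 4 and CON 8 and 0 on either BeadChip alone, beside 11 as reported, and between 8 and 15 under the other planned settings that kept all 16 arrays. Shares of all tested genes called under these settings are not given, so the counts describe the members only. The count of higher genes was 2 as reported and 0 on either BeadChip alone. It was 1 with median scaling, with no normalization, with the replicate number as a block, with the mean over the probes of a gene and with its least changed probe. The median difference was −0.21 with median scaling and −0.37 with no normalization, and between −0.09 and −0.07 otherwise. With no fold limit 13 members passed, and with 1.5-fold 0, or 1 with the deposited log2 values and 2 with no normalization. Leaving out each array in turn gave 7 to 15 lower genes, 2 higher genes throughout and a median of −0.09 to −0.07. Rpl23 turned to −0.0209 with no normalization and to −0.00084 with its least changed probe, and Rpl5 to −0.28 with no normalization. With no normalization the median over all probes was −0.25. Rpl24 did not pass with a t-test for each probe (adjusted p = 0.0522) nor in 6 of the 16 fits that left out 1 array. The causes of these differences were not tested, and a fit on 1 BeadChip alone also has fewer arrays.

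With the replicate number as a block, 8 members were lower and 1 was higher, and the median was −0.08. Rps10, Rps12, Rps27l and Rpl23 no longer passed. Same-numbered arrays of the 2 groups did not deviate together, with correlations from −0.29 to 0.098 over probes, and 1 of 8 CON arrays correlated best with the LUN array of its number. The authors' names of the arrays carry a matching mouse or sample number in both groups for most replicate numbers, though not for all. What that number stands for is not given, and these correlations cannot tell whether the arrays were paired. Probes near background limit Rpsa, Rpl3l, Rpl7a, Rpl21, Rps23, Rps23rg1 and Mrpl15.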
